A study of Homo sapiens with 16 samples.

Results

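The 28 genes described here encode the enzymes that build cholesterol from acetyl-CoA, the sterol regulatory element-binding proteins (SREBPs) that control those enzymes, and a small set of other SREBP targets. They were taken as the rows of the deposited table whose Ensembl identifiers map to a fixed list of symbols, and all 28 were found among the 62700 genes of the table. By role they comprise 8 genes of the mevalonate steps, 11 genes of the steps from squalene to cholesterol, 5 genes of SREBP and its sterol control, and 4 further targets in lipid synthesis and sterol transport.

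RNA-seq was performed on OCI-AML3, an established acute myeloid leukemia cell line, in 16 libraries. Untreated cells gave 4 libraries, and 3 libraries each came from cells treated with ATRA (all-trans retinoic acid, a natural retinoid with a polyene chain), with AM80 (tamibarotene, a synthetic retinoid built on an aromatic amide), and with either retinoid together with the pair of inhibitors GSK-LSD1 and MB3. GSK-LSD1 inhibits the histone demethylase LSD1, and MB3 inhibits the histone acetyltransferase GCN5. Exposure lasted 3 h. The retinoids and GSK-LSD1 were used at 0.1 µM each and MB3 at 100 µM. No group received the inhibitors without a retinoid, so the retinoid with inhibitors (below, the ATRA combination and the AM80 combination) was compared with untreated cells and with the same retinoid alone, and the effect of GSK-LSD1 cannot be told apart from that of MB3. The labels do not say whether replicates came from separate cultures, so p-values measure only the spread between these libraries, which may be technical. All groups are 1 cell line, and bulk libraries cannot tell a change in every cell from a larger change in some of them.

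Libraries held 11963898 to 33789718 reads assigned to genes, and the member with the fewest reads had 65 in a single library. Of 7 myeloid marker genes, 6 (PTPRC, SPI1, CEBPA, CD33, CSF3R and LYZ) were abundant in every library, the lowest value being 1254 normalized counts, whereas MPO lay between 23.9 and 53.2. Of 5 markers of other cells (CD3D, CD3E, MS4A1, EPCAM and COL1A1), CD3D and MS4A1 were at 0 in all libraries and the highest value of any was 4.43 normalized counts. The labels name no batch. AM80 replicate 2 and Untreated replicate 4 stood apart from their groups, with a mean distance to the other libraries of the group of 46.8 against 38.6 and 39.6, and of 53.2 against 43.3 to 44.9 (Euclidean, log2 scale, 14643 genes). Calls of members that are lost without either are given with and without it.

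Cholesterol is made in the membrane of the endoplasmic reticulum from acetyl-CoA through mevalonate, the isoprenoid diphosphates and squalene, and side branches of the same route supply farnesyl and geranylgeranyl groups for proteins, dolichol and coenzyme Q. SREBF1 and SREBF2 encode membrane-bound transcription factors that the escort protein SCAP carries to the Golgi when sterols are scarce. INSIG proteins hold SCAP back when sterols are plentiful, and INSIG1 is itself an SREBP target. In myeloid cells the pathway supplies membrane for growth and prenyl groups for small GTPases.

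Sequence upstream of the gene start is shown for 6 members, chosen after their values were seen, because INSIG1, HSD17B7 and GGPS1 rose with both combinations, NSDHL fell with both, MSMO1 rose with both retinoids, and SREBF2 holds the only match to the sterol regulatory element among members with a promoter window. The sequences are from RefSeq on GRCh38.p14, in which 24 of the 28 members had at least 1 promoter window. All 6 lie on the plus strand, are written 5′ to 3′, and run from 250 bases before the RefSeq start to the base before that start or before the outermost gene start of the GENCODE 29 annotation, whichever comes first, so they end outside annotated transcripts of the gene. Capitals mark the CCAAT box, the letters bound by NF-Y (CCAAT, or ATTGG when it lies on the minus strand), and in SREBF2 also the sterol regulatory element letters TCACNCCAC.
INSIG1, chr7:155297628-155297775: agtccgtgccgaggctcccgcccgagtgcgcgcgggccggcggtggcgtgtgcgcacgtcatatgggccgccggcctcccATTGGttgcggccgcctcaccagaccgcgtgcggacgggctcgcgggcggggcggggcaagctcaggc
HSD17B7, chr1:162790452-162790701: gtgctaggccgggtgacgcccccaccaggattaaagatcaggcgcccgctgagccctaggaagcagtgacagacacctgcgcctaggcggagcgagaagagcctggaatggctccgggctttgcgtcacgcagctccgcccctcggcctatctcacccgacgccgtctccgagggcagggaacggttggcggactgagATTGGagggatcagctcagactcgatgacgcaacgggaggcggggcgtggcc
GGPS1, chr1:235326966-235327215: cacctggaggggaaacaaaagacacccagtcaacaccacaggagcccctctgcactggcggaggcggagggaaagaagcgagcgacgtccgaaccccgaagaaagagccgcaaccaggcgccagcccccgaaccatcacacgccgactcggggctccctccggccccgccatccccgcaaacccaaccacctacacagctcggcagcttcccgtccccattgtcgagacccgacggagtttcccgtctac
NSDHL, chrX:152830813-152830966: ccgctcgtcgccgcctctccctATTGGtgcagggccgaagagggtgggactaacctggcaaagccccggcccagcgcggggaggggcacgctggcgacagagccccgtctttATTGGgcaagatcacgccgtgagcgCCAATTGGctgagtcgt
MSMO1, chr4:165327419-165327622: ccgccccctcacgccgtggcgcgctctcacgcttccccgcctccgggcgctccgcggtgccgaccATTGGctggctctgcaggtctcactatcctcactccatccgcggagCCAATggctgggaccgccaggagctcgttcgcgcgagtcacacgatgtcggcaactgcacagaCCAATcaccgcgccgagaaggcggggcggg
SREBF2, chr22:41832855-41833078: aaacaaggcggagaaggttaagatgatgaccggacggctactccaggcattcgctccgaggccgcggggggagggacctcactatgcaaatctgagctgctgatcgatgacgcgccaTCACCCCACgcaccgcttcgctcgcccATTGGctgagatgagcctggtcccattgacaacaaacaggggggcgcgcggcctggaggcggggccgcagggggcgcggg

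MSMO1 shows 3 CCAAT boxes in this stretch, NSDHL shows 4 of which a pair overlap in a palindrome, INSIG1, HSD17B7 and SREBF2 show 1 each, and the GGPS1 stretch shows 0. Over the full windows of 300 bases, with both strands searched, CCAAT occurred in 18 of the 24 members that had a window (75% against 39.7% of 27305 genes) and the SP1 letters GGGCGG in 23 (95.8% against 48.3%). TCACNCCAC occurred in 1 of the 24 members, SREBF2, and in 1.39% of all genes. These counts are descriptions of letters, and a window without them says nothing of binding elsewhere. Genes with several RefSeq starts have several windows, and by window the shares over all 35116 were 34.6% for CCAAT, 45% for GGGCGG and 1.13% for TCACNCCAC.

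Among untreated cells the members spanned a wide range of levels. Per kilobase of union exon length, the highest were FASN, the fatty acid synthase, at 1903 normalized counts per kb and SCD, which makes monounsaturated fatty acids, at 1871. They were followed by FDPS at 973, SREBF2 at 875 and PMVK at 761, and the lowest were HSD17B7 at 37.1 and MVK at 31.1. Lengths came from GENCODE 29 on GRCh38, which may differ from the annotation used for counting. Per gene, the median untreated level of the members was 840 normalized counts against 366 for the 14643 genes tested, and 21 of the 28 lay above the latter. All 28 members passed the filter of a mean of at least 10 normalized counts.

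Values are normalized counts (reads divided by a size factor of the library), log2 changes are differences of log2(normalized count + 1) with their SE, and a gene was called when limma's p, adjusted by Benjamini-Hochberg over all 14643 genes, was under 0.05. With ATRA alone, 7 of 28 members were higher (25%, where 12.5% of all genes were higher) and 1 was lower (3.57%, where 12.1% of all genes were lower). With AM80 alone, 10 were higher (35.7%, against 15.4%) and 3 were lower (10.7%, against 13.4%). These were 9 and 1 without AM80 replicate 2 (12.7% and 10.6% of all genes), with SCAP and FASN no longer lower. With the ATRA combination against untreated cells, 11 were higher (39.3%, against 30.2%) and 11 were lower (39.3%, against 30%). Without Untreated replicate 4 these were 10 and 9 (29.8% and 29.2% of all genes). With the AM80 combination, 12 were higher (42.9%, against 28%) and 5 were lower (17.9%, against 26.6%). Adding the inhibitors to ATRA gave 8 higher (28.6%, against 24.9%) and 11 lower (39.3%, against 24.4%), and adding them to AM80 gave 6 higher (21.4%, against 19.9%) and 6 lower (21.4%, against 19.5%), the last being near the background in both directions. Without Untreated replicate 4, adding the inhibitors to ATRA gave 9 higher and 14 lower (27.2% and 26.9% of all genes). Most members lay above the median level of the genes tested, and a stricter filter gave larger background shares. With the cut-off raised from 10 to 50, adding the inhibitors to ATRA raised 30.4% and lowered 26.9% of the remaining genes. The members called there were again 8 higher, now below the background, and 11 lower, still above it. The shares for the ATRA combination against untreated cells became 34.4% and 33.1%. On adding the inhibitors to AM80 they became 24.1% and 21.5%. These shares are descriptions, with no test made of the members as a list.

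The changes of the members were mostly small. Past 1.5-fold, ATRA alone left 0 of 28 called where 9.45% of all genes were, and AM80 alone left 2 (MSMO1 and IDI1) where 10.2% were. The ATRA combination left 7 against untreated cells (29.1% of all genes) and the AM80 combination 6 (26%). Adding the inhibitors left 4 with ATRA (19.5% of all genes) and 3 with AM80 (15.7%). Median log2 changes of the members were 0.08, 0.10, 0.07 and 0.08 with ATRA, AM80 and their combinations against untreated cells, and -0.17 and -0.01 on adding the inhibitors to ATRA and to AM80, while those of all genes were -0.02, -0.01, -0.00303, -0.00292, -0.02 and -0.01. The 4 comparisons against untreated cells share the same untreated libraries. Without AM80 replicate 2 and Untreated replicate 4, adding the inhibitors to AM80 called 20 members (9 higher and 11 lower, where 24.4% and 24.9% of all genes were) in place of 12.

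The split between higher and lower calls depended on how libraries were scaled. When each library was scaled to its total reads, the median log2 change of all genes became -0.15 and -0.19 for the ATRA and AM80 combinations against untreated cells and -0.16 and -0.13 on adding the inhibitors to ATRA and to AM80. The members then called were 7 higher and 12 lower with the ATRA combination (21.6% and 40% of all genes), 7 and 11 with the AM80 combination (18% and 41.2%), and 5 and 17 on adding the inhibitors to ATRA (15.2% and 35.8%). Under quantile normalization the AM80 combination gave 10 higher and 7 lower (24.4% and 29.3% of all genes), and adding the inhibitors to ATRA gave 6 and 14 (23.2% and 24.3%). No member called in these 6 comparisons changed direction under either scaling.

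**Figure D1:**
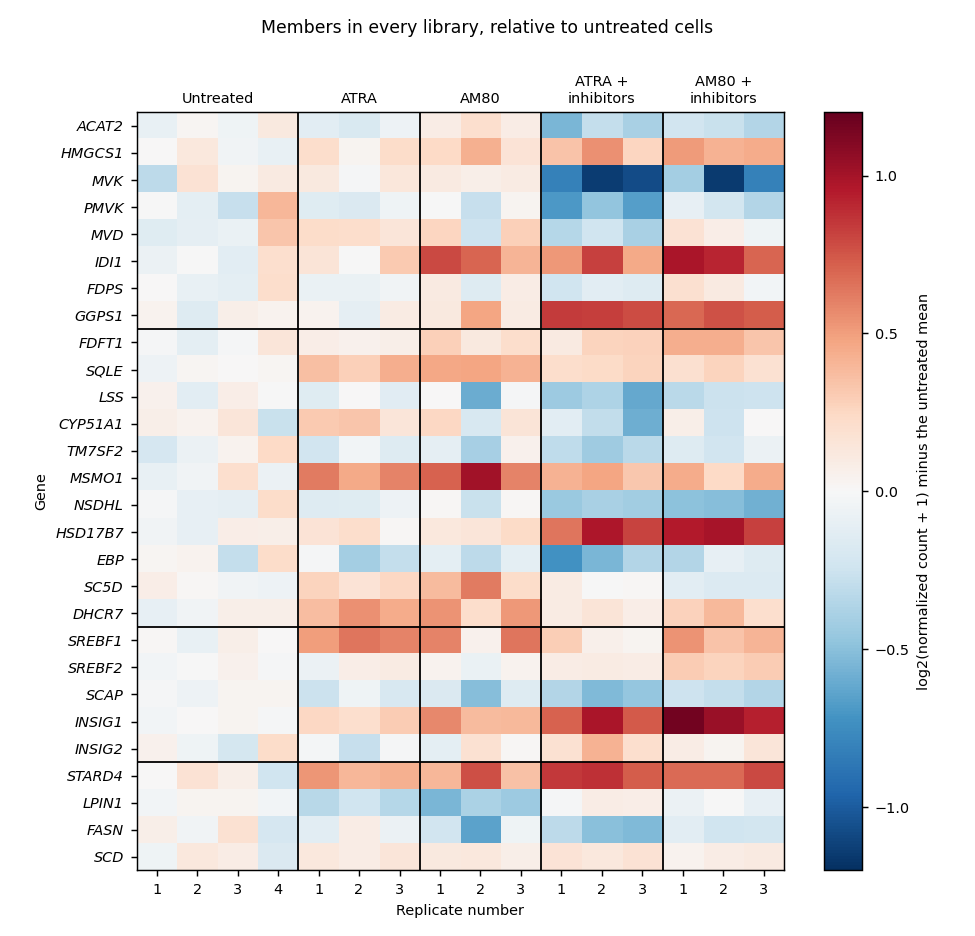
Each of the 28 members (rows) in each of the 16 libraries (columns, by group and replicate number), as log2(normalized count + 1) minus the mean of the 4 untreated libraries, with red above and blue below that mean. Black lines separate groups and roles. INSIG1, HSD17B7, GGPS1, IDI1 and STARD4 are red and MVK is blue in all 6 combination libraries. INSIG1, STARD4, MSMO1, SQLE and DHCR7 are above the untreated mean in every treated library.

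Across the conditions the members were not all called together or in the same direction. With both retinoids alone, which share the untreated libraries, 7 members rose (DHCR7, INSIG1, MSMO1, SC5D, SQLE, SREBF1 and STARD4) where 10.3% of all genes did, and LPIN1 fell where 8.43% did. With both combinations 9 were higher than in untreated cells (FDFT1, GGPS1, HMGCS1, HSD17B7, IDI1, INSIG1, MSMO1, SQLE and STARD4) where 25% of all genes were. In both, 5 were lower (ACAT2, LSS, MVK, NSDHL and SCAP) where 22.4% were. Of these 9, FDFT1, MSMO1 and SQLE lost a call under another scaling, and of the 5 LSS did. Adding the inhibitors raised 4 members beside both retinoids (GGPS1, HSD17B7, INSIG1 and LPIN1) and lowered 3 (ACAT2, MVK and NSDHL), where 15.9% and 13.9% of all genes moved so. For 5 members called higher with a retinoid alone (DHCR7, MSMO1, SC5D, SQLE and SREBF1), adding the inhibitors to that retinoid gave a lower call. Both comparisons use the same retinoid libraries with opposite sign, so a high value there favours both calls. The share of all genes with this pattern was not counted. FDPS was the 1 member called in none of the 6 comparisons, and 0 members were called in opposite directions with the ATRA and AM80 combinations. For these counts, too, the share of all genes was not counted.

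**Figure D2:**
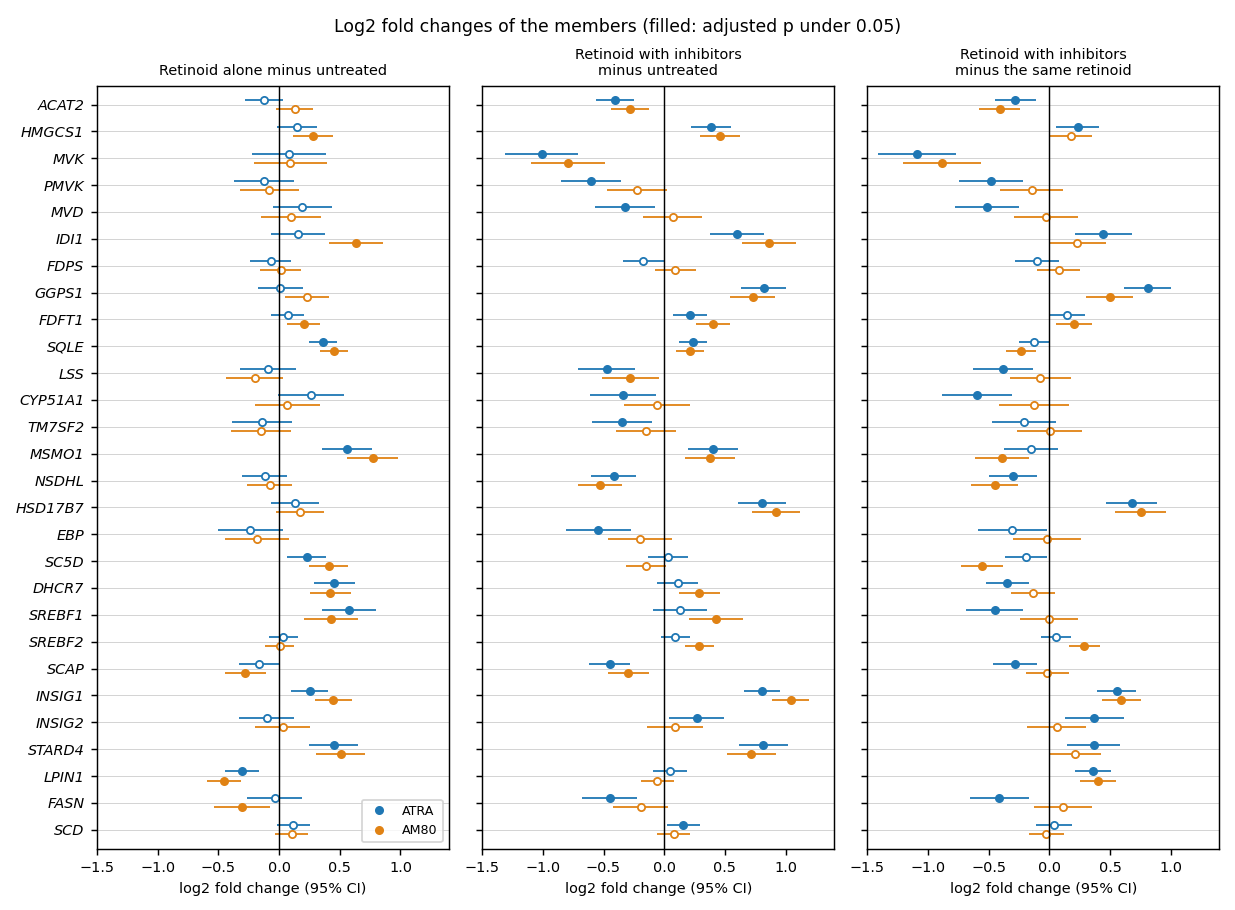
Log2 changes of the 28 members (rows) with 95% confidence intervals from limma, for ATRA (blue) and AM80 (orange). From left to right, the panels set each retinoid alone and each combination against untreated cells, and each combination against its own retinoid, and filled points have an adjusted p under 0.05. INSIG1 lies to the right of 0 in all 3 panels for both retinoids, MVK lies to the left in the middle and right panels only, and FDPS has open points throughout.

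Of the regulators, INSIG1 changed most. INSIG1 (ENSG00000186480.13, chr7:155297776-155310235), which retains SCAP in the endoplasmic reticulum, had normalized counts of 1841, 1889.7, 1923 and 1862 in untreated cells, 2231, 2162 and 2319 after ATRA, 2794, 2451 and 2457 after AM80, 3064, 3697 and 3123 with the ATRA combination and 4187, 3849.9 and 3584 with the AM80 combination. Every treated library lay above every untreated library, and every combination library lay above every library with a retinoid alone. The log2 change from untreated cells was 0.25 ± 0.07 with ATRA (limma adjusted p = 0.014), 0.45 ± 0.07 with AM80 (limma adjusted p = 6.74e-05), 0.80 ± 0.07 with the ATRA combination (limma adjusted p = 9.99e-09) and 1.04 ± 0.07 with the AM80 combination (limma adjusted p = 1.83e-10). Adding the inhibitors raised it by 0.55 ± 0.08 over ATRA (limma adjusted p = 8.70e-06) and by 0.59 ± 0.08 over AM80 (limma adjusted p = 4.67e-06). The call with ATRA alone was lost without ATRA replicate 3 (log2 change 0.23, limma adjusted p = 0.0692).

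INSIG2 (ENSG00000125629.16, chr2:118088452-118110997), the paralog with the same role, was less abundant and changed less. Normalized counts of the gene were 243, 226, 202 and 273 in untreated cells, 231, 193 and 233 after ATRA, 216, 267 and 237 after AM80, 267, 313 and 269 with the ATRA combination and 249, 239 and 260.1 with the AM80 combination. Libraries of the ATRA combination overlapped the untreated ones and lay above those with ATRA alone. On the log2 scale the change was 0.27 ± 0.11 against untreated cells (limma adjusted p = 0.0407) and 0.37 ± 0.12 against ATRA (limma adjusted p = 0.0129). The first call was lost without Untreated replicates 1, 2 or 3 or ATRA combination replicates 2 or 3 (log2 changes of 0.19 to 0.30, limma adjusted p = 0.0503 to 0.194). It was also lost without a filter on low values, under scaling to total reads, with only the groups compared, with edgeR or with DESeq2 (0.12 to 0.27, adjusted p = 0.0504 to 0.34). The second was lost without ATRA replicate 2 or ATRA combination replicate 2 (log2 changes of 0.28 to 0.29, limma adjusted p = 0.0743 to 0.0823) and under scaling to total reads (0.22, adjusted p = 0.106).

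SREBF1 (ENSG00000072310.18, chr17:17810399-17837002), the SREBP gene tied most closely to fatty acid synthesis, rose with the retinoids. In normalized counts, its levels were 1425, 1327, 1483 and 1418 in untreated cells, 1998, 2207 and 2129.8 after ATRA, 2135, 1465 and 2204 after AM80, 1733, 1473 and 1441 with the ATRA combination and 2048, 1787 and 1871 with the AM80 combination. All ATRA libraries lay above the untreated ones, and of the AM80 libraries replicate 2, which stood apart, lay within the untreated range. The fitted log2 change was 0.58 ± 0.11 with ATRA (limma adjusted p = 0.000291) and 0.43 ± 0.11 with AM80 (limma adjusted p = 0.00388), and without AM80 replicate 2 the latter was 0.62 (limma adjusted p = 4.26e-06). With the AM80 combination it was also higher than in untreated cells, by 0.43 ± 0.11 (limma adjusted p = 0.00189), a limma call lost under scaling to total reads (0.24, adjusted p = 0.059). Adding the inhibitors to ATRA lowered SREBF1, with a log2 change of -0.45 ± 0.11 (limma adjusted p = 0.00266), back to a level not called against untreated cells (0.13). Adding them to AM80 gave -0.00352 (limma adjusted p = 0.983), and without AM80 replicate 2 the value was -0.19 (limma adjusted p = 0.0696). SREBF1 overlaps RAI1 on the other strand (mean 1024 normalized counts), and the strand setting of the counting was not given.

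SREBF2 (ENSG00000198911.13, chr22:41833079-41907308), the SREBP gene tied most closely to cholesterol synthesis, was the more abundant of the pair. Its normalized counts were 6469, 6594, 6838 and 6558 in untreated cells, 6309.9, 7002 and 7059 after ATRA, 6823, 6277 and 6804 after AM80, 7036, 7090.5 and 7014 with the ATRA combination and 8158, 7933 and 8171 with the AM80 combination. Only the 3 libraries of the AM80 combination lay above all the others. Their log2 change was 0.29 ± 0.06 against untreated cells (limma adjusted p = 0.000197) and 0.29 ± 0.06 against AM80 (limma adjusted p = 0.000783), while those of the ATRA combination were 0.09 and 0.06 (limma adjusted p = 0.17 and 0.469). With limma the call against untreated cells was lost under quantile normalization (0.06, adjusted p = 0.366) and under scaling to total reads (0.11, adjusted p = 0.123), and that against AM80 under quantile normalization (0.14, adjusted p = 0.0775).

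SCAP (ENSG00000114650.21, chr3:47413694-47477126), the escort of the SREBPs, fell with both combinations. Normalized counts of the gene were 1408, 1366, 1455 and 1455 in untreated cells, 1189, 1373 and 1245 after ATRA, 1259, 999 and 1280.1 after AM80, 1113, 985 and 1028 with the ATRA combination and 1193, 1166 and 1115 with the AM80 combination. The combination libraries and the AM80 libraries all lay below the untreated ones, and the ATRA libraries overlapped them. Its log2 change was -0.45 ± 0.08 with the ATRA combination (limma adjusted p = 6.90e-05) and -0.30 ± 0.08 with the AM80 combination (limma adjusted p = 0.00381). With AM80 alone it was -0.28 ± 0.08 (limma adjusted p = 0.0123), a call lost without AM80 replicate 2 (log2 change -0.16, limma adjusted p = 0.109). The call was also lost with only the groups compared (-0.28, adjusted p = 0.0628). Adding the inhibitors to ATRA gave -0.28 ± 0.09 (limma adjusted p = 0.00979), a call lost without ATRA replicate 2 or ATRA combination replicate 2 (log2 changes of -0.24 to -0.23, limma adjusted p = 0.0505 to 0.0627).

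**Figure D3:**
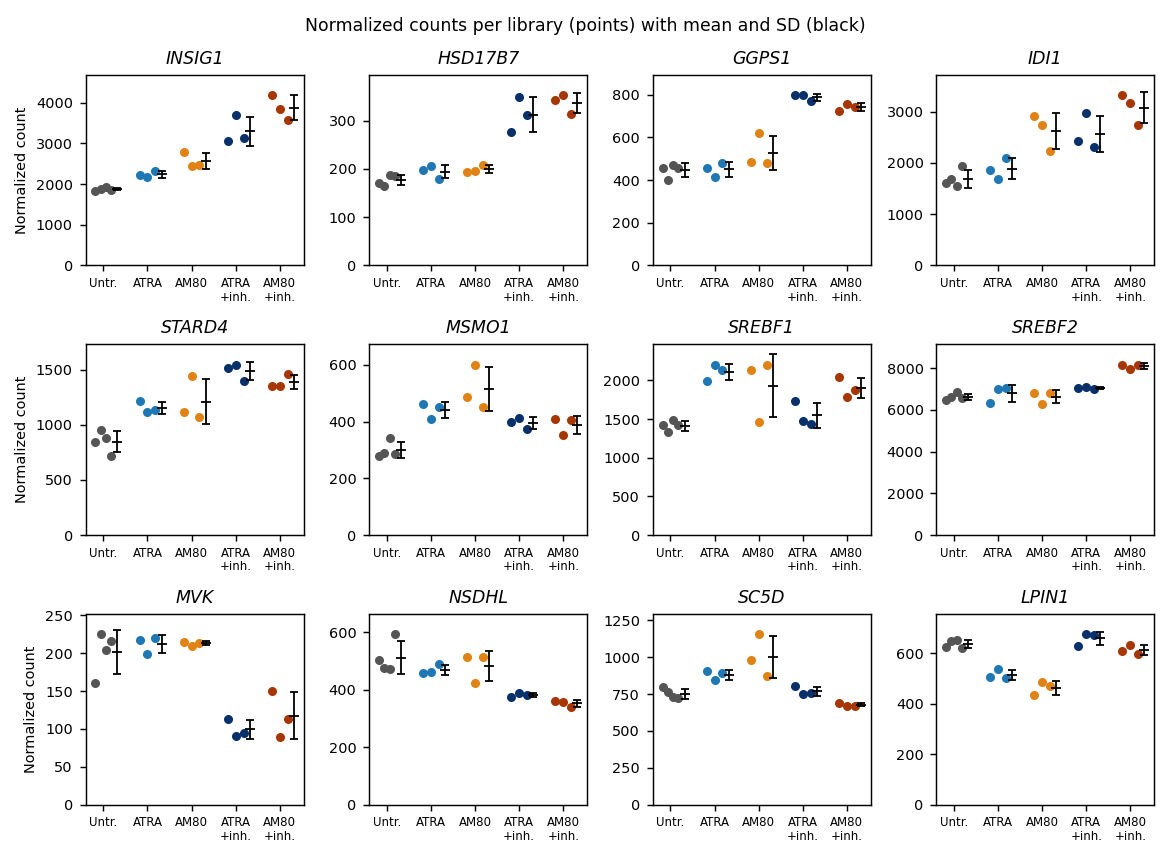
Normalized counts (vertical axes from 0) of 12 members in every library, by group (untreated, ATRA, AM80, and each retinoid with the inhibitors), with the mean and SD of the group in black (4 untreated libraries and 3 in each treated group). INSIG1, HSD17B7 and GGPS1 are highest in the combinations, MVK and NSDHL are lowest there, and LPIN1 is lowest with a retinoid alone.

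In the mevalonate steps the combinations raised some enzymes and lowered others. With the ATRA combination 3 of 8 genes rose (HMGCS1, IDI1 and GGPS1) and 4 fell (ACAT2, MVK, PMVK and MVD), where 30.2% and 30% of all genes did. With the AM80 combination the same 3 rose and 2 of those 4 fell (ACAT2 and MVK), where 28% and 26.6% did. With ATRA alone 0 of 8 were called (12.5% of all genes higher and 12.1% lower), and with AM80 alone 2 rose (IDI1 and HMGCS1, against 15.4%). The median log2 change of the 8 was -0.25 with the ATRA combination and 0.08 with the AM80 combination against untreated cells.

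MVK (ENSG00000110921.14, chr12:109573255-109598117), the kinase that phosphorylates mevalonate, had the largest fall of any member. In normalized counts, its levels were 160.4, 225, 204 and 216 in untreated cells, 217, 198 and 220.4 after ATRA, 215, 210.2 and 214 after AM80, 113, 90.2 and 94.3 with the ATRA combination and 150.2, 89.3 and 113 with the AM80 combination. All 6 combination libraries lay below all other libraries, and the retinoid libraries lay within the untreated range. The log2 change was -1.01 ± 0.14 (limma adjusted p = 5.33e-06) and -0.79 ± 0.14 (limma adjusted p = 0.0001) against untreated cells, and -1.09 ± 0.15 (limma adjusted p = 9.98e-06) and -0.88 ± 0.15 (limma adjusted p = 0.000125) against ATRA and AM80. MVK overlaps MMAB on the other strand (mean 447 normalized counts), and without the strand setting reads of the 2 genes cannot be told apart where they overlap.

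PMVK (ENSG00000163344.6, chr1:154924734-154936991) encodes the next kinase. Its normalized counts were 952, 883, 792 and 1266 in untreated cells, 869, 848 and 927 after ATRA, 958, 793 and 981 after AM80, 596, 691 and 606 with the ATRA combination and 892, 822 and 749 with the AM80 combination. The libraries of the ATRA combination lay below all others, whereas those of the AM80 combination overlapped the untreated ones. On the log2 scale the change was -0.61 ± 0.12 with the ATRA combination (limma adjusted p = 0.00017) and -0.23 ± 0.12 with the AM80 combination (limma adjusted p = 0.111). MVD, the decarboxylase that makes isopentenyl diphosphate, fell from 833 ± 139 normalized counts (SD) in untreated cells to 659.6 ± 36.6 with the ATRA combination (log2 change -0.32 ± 0.12, limma adjusted p = 0.0222), and stood at 867 ± 66.9 with the AM80 combination (limma adjusted p = 0.644). The call of MVD was lost without Untreated replicate 4 or ATRA combination replicates 1 or 3 (log2 changes of -0.31 to -0.21, limma adjusted p = 0.0604 to 0.0804).

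IDI1 (ENSG00000067064.13, chr10:1039152-1049170), the isomerase that interconverts the 5-carbon isoprenoid units, rose with AM80 and with both combinations. Normalized counts of the gene were 1609, 1676, 1542 and 1939 in untreated cells, 1870.3, 1684 and 2097 after ATRA, 2913, 2735 and 2236 after AM80, 2422, 2969 and 2316 with the ATRA combination and 3323, 3167 and 2736 with the AM80 combination. The AM80 libraries and all combination libraries lay above the untreated ones, and the ATRA libraries overlapped them. The fitted log2 change was 0.63 ± 0.11 with AM80 (limma adjusted p = 0.000102), 0.15 ± 0.11 with ATRA (limma adjusted p = 0.323), 0.60 ± 0.11 with the ATRA combination (limma adjusted p = 6.35e-05) and 0.86 ± 0.11 with the AM80 combination (limma adjusted p = 7.84e-07). Adding the inhibitors raised it over ATRA by 0.44 ± 0.11 (limma adjusted p = 0.003), and over AM80 the change was 0.23 ± 0.11 (limma adjusted p = 0.114).

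GGPS1 (ENSG00000152904.11, chr1:235327350-235344532), which makes geranylgeranyl diphosphate for protein prenylation, rose on adding the inhibitors. In normalized counts, its levels were 459, 402, 469.6 and 459 in untreated cells, 459, 413 and 479 after ATRA, 486, 620.3 and 479 after AM80, 799, 797 and 768 with the ATRA combination and 721, 759 and 740.3 with the AM80 combination. All combination libraries lay above all others, and among the AM80 libraries replicate 2 was the highest. Its log2 change was 0.82 ± 0.09 (limma adjusted p = 1.20e-07) and 0.73 ± 0.09 (limma adjusted p = 6.04e-07) against untreated cells, and 0.81 ± 0.09 (limma adjusted p = 9.39e-07) and 0.50 ± 0.09 (limma adjusted p = 0.000285) against ATRA and AM80. GGPS1 overlaps ARID4B on the other strand (mean 2356 normalized counts), so reads of the 2 genes may not be separated.

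HMGCS1, which condenses acetyl-CoA units into HMG-CoA, had 1932 ± 127 normalized counts (SD) in untreated cells and 2145 ± 154, 2347 ± 221, 2528 ± 269 and 2647 ± 88 with ATRA, AM80 and the respective combinations. It was called higher with AM80 (0.28, limma adjusted p = 0.0109) and with both combinations (0.39 and 0.46, limma adjusted p = 0.000301 and 5.60e-05). The call with AM80 was lost without AM80 replicate 2 (log2 change 0.20, limma adjusted p = 0.0773), and that on adding the inhibitors to ATRA (0.23, limma adjusted p = 0.0269) was lost without ATRA replicate 2 or ATRA combination replicate 2 (log2 changes of 0.15 to 0.17, limma adjusted p = 0.141 to 0.178). It was also lost without a filter on low values, under quantile normalization or under scaling to total reads (0.09 to 0.23, adjusted p = 0.0632 to 0.416). ACAT2, the cytosolic thiolase at the start of the route, fell from 839 ± 54.7 to 634 ± 56.7 with the ATRA combination (-0.40, limma adjusted p = 9.67e-05) and to 689 ± 31.7 with the AM80 combination (-0.28, limma adjusted p = 0.00309). ACAT2 overlaps TCP1 on the other strand (mean 8234 normalized counts), which is far more abundant. FDPS, the farnesyl diphosphate synthase, lay between 3055 and 4177 normalized counts in the 16 libraries and was not called, with log2 changes of -0.07, 0.01, -0.17 and 0.09 from untreated cells.

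Between squalene and cholesterol, the retinoids alone raised some of the 11 enzymes. With ATRA 4 of 11 rose (SQLE, MSMO1, SC5D and DHCR7, where 12.5% of all genes did), and with AM80 these 4 and FDFT1 rose (15.4%). With either retinoid 0 of 11 fell, where 12.1% of all genes did with ATRA and 13.4% with AM80. With the ATRA combination 4 were higher than in untreated cells (FDFT1, SQLE, MSMO1 and HSD17B7) and 5 were lower (LSS, CYP51A1, TM7SF2, NSDHL and EBP), where 30.2% and 30% of all genes were. With the AM80 combination 5 were higher (FDFT1, SQLE, MSMO1, HSD17B7 and DHCR7) and 2 were lower (LSS and NSDHL), where 28% and 26.6% of all genes were. The median log2 change of the 11 was 0.13 with ATRA, 0.17 with AM80, 0.03 with the ATRA combination and -0.06 with the AM80 combination.

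MSMO1 (ENSG00000052802.13, chr4:165327623-165343160), the methylsterol monooxygenase that begins removal of the C4 methyl groups, rose with both retinoids, and with AM80 more than any other member. Its normalized counts were 280.3, 291, 344 and 285 in untreated cells, 462, 409.7 and 451 after ATRA, 487, 602 and 453 after AM80, 399, 414 and 374 with the ATRA combination and 408, 353 and 407 with the AM80 combination. Every treated library lay above every untreated library, and the highest was AM80 replicate 2. The log2 change was 0.56 ± 0.10 with ATRA (limma adjusted p = 0.00022), 0.77 ± 0.10 with AM80 (limma adjusted p = 3.84e-06), 0.40 ± 0.10 with the ATRA combination (limma adjusted p = 0.0016) and 0.38 ± 0.10 with the AM80 combination (limma adjusted p = 0.00306). Adding the inhibitors to AM80 lowered it, with a change of -0.39 ± 0.11 (limma adjusted p = 0.00582), and the change over ATRA was -0.15 ± 0.11 (limma adjusted p = 0.24). The limma call of the AM80 combination was lost under scaling to total reads (0.19, adjusted p = 0.111). Without AM80 replicate 2 the rise with AM80 was 0.65 (limma adjusted p = 3.23e-05) and the change on adding the inhibitors to AM80 was -0.27 (limma adjusted p = 0.0376).

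SC5D (ENSG00000109929.10, chr11:121292453-121308694), the sterol desaturase near the end of the route, also rose with both retinoids. Normalized counts of the gene were 796, 761, 731 and 721 in untreated cells, 906, 844 and 891 after ATRA, 980.3, 1157 and 876 after AM80, 803, 748 and 757 with the ATRA combination and 689.5, 671 and 672 with the AM80 combination. Both retinoid groups lay above the untreated libraries, the ATRA combination overlapped them, and the AM80 combination lay below them without being called (-0.15, limma adjusted p = 0.111). On the log2 scale the change was 0.23 ± 0.08 with ATRA (limma adjusted p = 0.0388) and 0.41 ± 0.08 with AM80 (limma adjusted p = 0.000416), and adding the inhibitors to AM80 gave -0.56 ± 0.08 (limma adjusted p = 2.28e-05). The call with ATRA was lost without Untreated replicates 2, 3 or 4 or ATRA replicates 1, 2 or 3 (log2 changes of 0.21 to 0.26, limma adjusted p = 0.052 to 0.139). The call was also lost without a filter on low values (0.23, adjusted p = 0.0847). Without AM80 replicate 2 the changes were 0.30 (limma adjusted p = 0.00335) with AM80 and -0.45 (limma adjusted p = 7.70e-05) on adding the inhibitors.

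HSD17B7 (ENSG00000132196.16, chr1:162790702-162812817), the ketoreductase that completes C4 demethylation, rose with both combinations and was not called with a retinoid alone. In normalized counts, its levels were 172, 165, 187 and 186 in untreated cells, 199, 205 and 179 after ATRA, 194, 196 and 208 after AM80, 276, 349 and 311 with the ATRA combination and 343, 353 and 314 with the AM80 combination. All combination libraries lay above all others. The fitted log2 change was 0.81 ± 0.09 (limma adjusted p = 3.75e-07) and 0.92 ± 0.09 (limma adjusted p = 6.07e-08) against untreated cells, and 0.68 ± 0.10 (limma adjusted p = 1.78e-05) and 0.75 ± 0.10 (limma adjusted p = 6.33e-06) against ATRA and AM80. Its pseudogene HSD17B7P2 had 2.85% of its level, so shared reads may be split between them.

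NSDHL, the dehydrogenase between MSMO1 and HSD17B7 in C4 demethylation, moved the other way. It stood at 511 ± 56.9 normalized counts (SD) in untreated cells, 469 ± 17.4 after ATRA, 484 ± 52.2 after AM80, 381 ± 8.07 with the ATRA combination and 352 ± 10.9 with the AM80 combination. The combination libraries lay below all others, with log2 changes of -0.42 ± 0.09 (limma adjusted p = 0.000388) and -0.53 ± 0.09 (limma adjusted p = 3.37e-05) against untreated cells and -0.30 ± 0.09 (limma adjusted p = 0.0124) and -0.45 ± 0.09 (limma adjusted p = 0.000697) against ATRA and AM80. The call against ATRA was lost without ATRA replicate 3 (log2 change -0.27, limma adjusted p = 0.0509). The 3 enzymes of C4 demethylation had different profiles, in that MSMO1 was highest with a retinoid alone, HSD17B7 was highest with the combinations, and NSDHL was lowest with the combinations.

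CYP51A1 (ENSG00000001630.18, chr7:92112151-92134803), the lanosterol demethylase, had normalized counts of 251, 246, 264 and 198 in untreated cells, 296, 300.2 and 264 after ATRA, 283, 208 and 265 after AM80, 219, 193 and 158 with the ATRA combination and 249.9, 201 and 239 with the AM80 combination. All ATRA libraries lay above all combination libraries, and the AM80 libraries overlapped both the untreated ones and those of the combinations. Adding the inhibitors to ATRA gave a log2 change of -0.60 ± 0.14 (limma adjusted p = 0.00133), and to AM80 -0.13 ± 0.14 (limma adjusted p = 0.496). The call of the ATRA combination against untreated cells (-0.34, limma adjusted p = 0.0297) was lost without Untreated replicates 1, 2 or 3 or ATRA combination replicates 2 or 3 (log2 changes of -0.36 to -0.21, limma adjusted p = 0.0539 to 0.205). It was also lost without a filter on low values, under quantile normalization or with DESeq2 (-0.34 to -0.21, adjusted p = 0.0544 to 0.163).

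EBP (ENSG00000147155.11, chrX:48521158-48528716), the sterol isomerase, had normalized counts of 225, 226, 181 and 257 in untreated cells, 219, 166 and 180.1 after ATRA, 203, 178 and 203 after AM80, 133, 149.98 and 173 with the ATRA combination and 172, 206 and 198 with the AM80 combination. Only the ATRA combination lay wholly below the untreated libraries. Its log2 change was -0.54 ± 0.13 with the ATRA combination (limma adjusted p = 0.00103) and -0.20 ± 0.13 with the AM80 combination (limma adjusted p = 0.192). TM7SF2, a C14 sterol reductase, fell from 178 ± 23.8 to 139 ± 6.32 normalized counts with the ATRA combination (-0.35, limma adjusted p = 0.015), and that call was lost without Untreated replicate 4 or ATRA combination replicate 2 (log2 changes of -0.31 to -0.27, limma adjusted p = 0.0512 to 0.0602). The call was also lost under quantile normalization (-0.22, adjusted p = 0.111). TM7SF2 overlaps VPS51 on the same strand (mean 1147 normalized counts), so its counts are uncertain. LSS, the lanosterol synthase, stood at 532 ± 33.6 in untreated cells, 383 ± 33.4 with the ATRA combination (-0.47, limma adjusted p = 0.00114) and 438 ± 12.5 with the AM80 combination (-0.28, limma adjusted p = 0.0416). The call of LSS with the AM80 combination was lost without Untreated replicates 1 or 3 or AM80 combination replicates 1, 2 or 3 (log2 changes of -0.29 to -0.25, limma adjusted p = 0.0727 to 0.114). It was also lost without a filter on low values, under quantile normalization or with DESeq2 (-0.28 to -0.26, adjusted p = 0.0541 to 0.0778). That on adding the inhibitors to ATRA (-0.38, limma adjusted p = 0.0124) was lost without ATRA replicate 2 or ATRA combination replicate 3 (log2 changes of -0.34 to -0.31, limma adjusted p = 0.0574 to 0.0681).

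SQLE, the squalene epoxidase, rose from 2896 ± 81.9 normalized counts (SD) in untreated cells to 3729 ± 198 with ATRA (0.36, limma adjusted p = 3.28e-05) and 3954 ± 86.5 with AM80 (0.45, limma adjusted p = 1.93e-06). With the combinations it stood between these, at 3408 ± 62.2 and 3362 ± 111, still above untreated cells (0.23 and 0.21, limma adjusted p = 0.00101 and 0.00242). In limma fits the call of the ATRA combination was lost under quantile normalization (0.05, adjusted p = 0.412) and under scaling to total reads (0.09, adjusted p = 0.153), and that of the AM80 combination under quantile normalization (0.02, adjusted p = 0.763) and under scaling to total reads (0.03, adjusted p = 0.637). DHCR7, the reductase of the final step, rose from 841 ± 49 to 1154 ± 74.3 with ATRA (0.46, limma adjusted p = 0.000211) and 1133 ± 141 with AM80 (0.42, limma adjusted p = 0.000416), and adding the inhibitors to ATRA lowered it to 907 ± 23 (-0.35, limma adjusted p = 0.00259). Its call with the AM80 combination (0.29, limma adjusted p = 0.0048) was lost under scaling to total reads (0.10, adjusted p = 0.264). FDFT1, which makes squalene, was highest with the AM80 combination at 4232 ± 171 against 3205 ± 245 in untreated cells (0.40, limma adjusted p = 3.22e-05). With the ATRA combination (0.21, limma adjusted p = 0.00903) the call was lost under quantile normalization (0.03, adjusted p = 0.707) and under scaling to total reads (0.07, adjusted p = 0.343). Its smaller call with AM80 alone (0.20, limma adjusted p = 0.0268) was lost without Untreated replicates 1, 2 or 3 or AM80 replicates 1 or 3 (log2 changes of 0.16 to 0.20, limma adjusted p = 0.053 to 0.138). It was also lost without a filter on low values, under quantile normalization, under scaling to total reads or with only the groups compared (0.14 to 0.20, adjusted p = 0.0651 to 0.116). That on adding the inhibitors to AM80 (0.20, limma adjusted p = 0.0301) was lost without AM80 replicates 2 or 3 or AM80 combination replicates 1 or 2 (log2 changes of 0.16 to 0.20, limma adjusted p = 0.0599 to 0.0985). That call was lost as well without a filter on low values, under quantile normalization, under scaling to total reads or with edgeR (0.04 to 0.20, adjusted p = 0.0584 to 0.633).

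Among the 4 further targets, STARD4 rose in all 4 treated groups and LPIN1 fell with the retinoids alone. STARD4 (ENSG00000164211.13, chr5:111496033-111512590), a soluble cholesterol carrier, had normalized counts of 845, 949, 883 and 715 in untreated cells, 1216, 1112 and 1132 after ATRA, 1112, 1442 and 1074 after AM80, 1515, 1547 and 1394 with the ATRA combination and 1351, 1348 and 1465 with the AM80 combination. Every treated library lay above every untreated library. The log2 change was 0.45 ± 0.10 with ATRA (limma adjusted p = 0.0014), 0.51 ± 0.10 with AM80 (limma adjusted p = 0.000396), 0.81 ± 0.10 with the ATRA combination (limma adjusted p = 4.64e-07) and 0.72 ± 0.10 with the AM80 combination (limma adjusted p = 2.62e-06). Adding the inhibitors raised it over ATRA by 0.36 ± 0.10 (limma adjusted p = 0.00648), and over AM80 the change was 0.21 ± 0.10 (limma adjusted p = 0.114). The call over ATRA was lost in limma fits under quantile normalization (0.26, adjusted p = 0.0621) and under scaling to total reads (0.22, adjusted p = 0.111). Without AM80 replicate 2 and Untreated replicate 4 together, the change with AM80 was 0.29 (limma adjusted p = 0.00119).

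LPIN1, a phosphatidate phosphatase of triglyceride synthesis, was the member that fell with both retinoids and rose on adding the inhibitors. It stood at 637 ± 17.1 normalized counts (SD) in untreated cells, 515 ± 19.9 with ATRA (-0.31, limma adjusted p = 0.00161) and 464 ± 27.7 with AM80 (-0.46, limma adjusted p = 1.96e-05), with no overlap. Adding the inhibitors raised it by 0.36 ± 0.07 over ATRA (limma adjusted p = 0.000377) and 0.40 ± 0.07 over AM80 (limma adjusted p = 0.000154), to 659.5 ± 25.9 and 612 ± 19.3, levels that overlapped those of untreated cells. The fall and the rise use the same retinoid libraries with opposite sign, so a low value there favours both calls. How many of all genes have this pattern was not counted. FASN stood at 17817 ± 1989.6 in untreated cells and 13022 ± 1072 with the ATRA combination (-0.45, limma adjusted p = 0.00136), and adding the inhibitors to ATRA gave -0.41 (limma adjusted p = 0.00594). Its call with AM80 alone (-0.31, limma adjusted p = 0.0396) was lost without Untreated replicates 1, 2 or 3, AM80 replicates 1 or 2 or AM80 combination replicate 2 (log2 changes of -0.34 to -0.14, limma adjusted p = 0.0502 to 0.333). It was also lost without a filter on low values, with only the groups compared or with edgeR (-0.31 to -0.28, adjusted p = 0.0547 to 0.138). SCD ranged from 8878 to 11288 normalized counts, and its 1 call, with the ATRA combination (0.16, limma adjusted p = 0.0449), was lost without any of 11 libraries: Untreated replicates 1 or 4, ATRA replicates 1 or 3, AM80 replicate 1, ATRA combination replicates 1, 2 or 3 or AM80 combination replicates 1, 2 or 3 (log2 changes of 0.10 to 0.17, limma adjusted p = 0.0536 to 0.123). The SCD call was also lost without a filter on low values, under quantile normalization, under scaling to total reads, with only the groups compared or with edgeR (0.01 to 0.16, adjusted p = 0.0578 to 0.935).

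AM80 and ATRA were compared directly, without and with the inhibitors, to see whether the members respond differently to the 2 retinoids. Of 28 members, 0 were called between AM80 and ATRA alone, where 0.239% of all genes were called, and 0 between the combinations, where 0% of all genes were called. At an unadjusted p under 0.05, 7 of 28 members differed without the inhibitors (5 of them higher with AM80) and 11 with them (10 higher with AM80). Of the 14643 genes tested, 2042 and 2656 did so, and their directions were not counted. edgeR called 88 genes of all between the retinoids and 0 between the combinations, and DESeq2 called 344 and 114. The 95% confidence interval of the difference lay inside 1.5-fold for 27 of 28 members without the inhibitors and for 25 of 28 with them. Median log2 differences of the members were 0.04 and 0.18, against 0.01 and -0.00349 for all genes.

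The member outside that limit without the inhibitors was IDI1, higher with AM80 by 0.48 ± 0.11 on the log2 scale (95% confidence interval 0.24 to 0.71, limma adjusted p = 0.0728), in 3 of 3 libraries. It was called by DESeq2, and by limma without Untreated replicate 4 (0.48), ATRA replicate 3 (0.56) or AM80 replicate 3 (0.59), with limma adjusted p of 0.0164, 0.0471 and 0.0141. Without Untreated replicate 4, 2.21% of all genes were higher and 0.922% lower, and without ATRA replicate 3, 0.485% and 0.178%. No such share is given without AM80 replicate 3. With the inhibitors the members outside the limit were MVD (0.39 ± 0.13, 0.13 to 0.65), PMVK (0.38 ± 0.13, 0.12 to 0.64) and EBP (0.34 ± 0.14, 0.06 to 0.63), with limma adjusted p of 0.159, 0.168 and 0.211. For SREBF2 the difference between the combinations was 0.20 ± 0.06 (0.07 to 0.32, limma adjusted p = 0.153), and for INSIG1 it was 0.24 ± 0.08 (0.07 to 0.40, limma adjusted p = 0.166). For MVK, HSD17B7 and GGPS1, whose changes were among the largest, the intervals were -0.11 to 0.54, -0.10 to 0.32 and -0.29 to 0.11. Without Untreated replicate 4, limma called MVD, PMVK, FDPS and SREBF2 between the combinations, where 3.17% of all genes were higher and 1.24% lower. Without AM80 replicate 2 it called MVD and SREBF1, a count given without the share of all genes in that run.

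Whether the inhibitors acted differently beside the 2 retinoids was tested as an interaction. Of 28 members 0 were called, as were 0% of all genes (edgeR called 0 genes and DESeq2 27). An unadjusted p under 0.05 was found for 8 of the 28 members and for 2211 of the 14643 genes tested. The interaction was largest for FASN, at 0.53 ± 0.16 (0.18 to 0.87, limma adjusted p = 0.226), followed by MVD at 0.49 ± 0.18 (0.12 to 0.86, limma adjusted p = 0.234) and CYP51A1 at 0.47 ± 0.20 (0.07 to 0.88, limma adjusted p = 0.275). Each was lowest among the AM80 libraries in replicate 2, and without that library the interactions were 0.36 (limma adjusted p = 0.554), 0.32 (limma adjusted p = 0.588) and 0.34 (limma adjusted p = 0.652). A member called with 1 combination and not with the other is therefore not shown to differ between them.

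**Figure D4:**
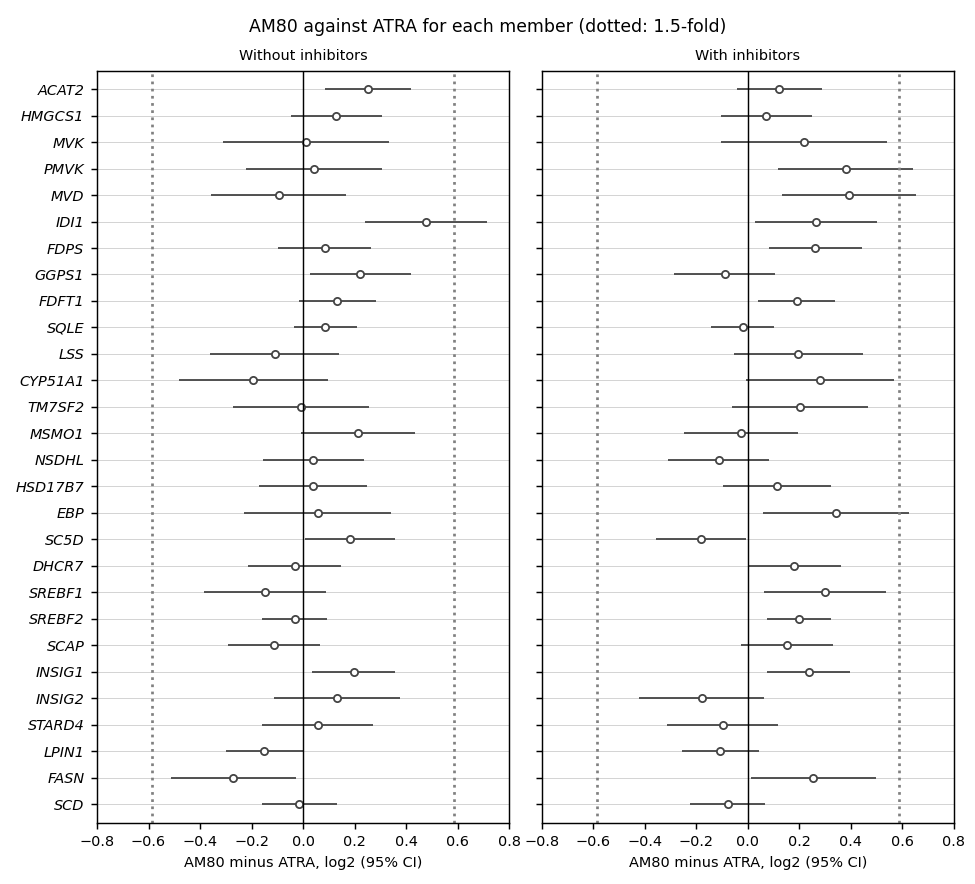
Difference between AM80 and ATRA for each of the 28 members (log2, points, with 95% confidence intervals from limma), without the inhibitors on the left and with them on the right, and dotted lines at 1.5-fold. All points are open because 0 members were called, and the intervals that cross a dotted line are those of IDI1 on the left and of PMVK, MVD and EBP on the right.

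Other genes of the pathway were taken from 4 further lists of 36 genes in all, of which 35 passed the filter (ELOVL6 did not). Median log2 changes with ATRA, AM80, the ATRA combination and the AM80 combination against untreated cells were -0.01, 0.05, 0.21 and 0.33 for sterol synthesis, uptake and transport, -0.05, -0.01, 0.05 and 0.14 for SREBP cleavage and turnover, -0.05, -0.06, -0.08 and 0.05 for fatty acid synthesis, and -0.04, -0.00, -0.01 and -0.03 for users of the isoprenoid diphosphates. The counts below are read against 12.5% of all genes higher and 12.1% lower with ATRA, 15.4% and 13.4% with AM80, 30.2% and 30% with the ATRA combination, and 28% and 26.6% with the AM80 combination. Of 9 genes of sterol synthesis, uptake and transport, 3 rose and 2 fell with ATRA, 2 rose and 3 fell with AM80, 5 rose and 2 fell with the ATRA combination, and 5 rose and 1 fell with the AM80 combination. SOAT1, which esterifies cholesterol for storage, rose by 1.55 ± 0.06 with ATRA (limma adjusted p = 4.73e-14), 1.59 ± 0.06 with AM80 (limma adjusted p = 2.78e-14), 2.13 ± 0.06 with the ATRA combination (limma adjusted p = 2.33e-16) and 1.96 ± 0.06 with the AM80 combination (limma adjusted p = 6.63e-16), more than any member. LBR, the lamin B receptor that is also a C14 sterol reductase like TM7SF2, had 5585, 5733, 5442 and 5297 normalized counts in untreated cells, 10219, 9302 and 10287 after ATRA, 10403, 11461 and 10104 after AM80, 19185, 19716 and 18205 with the ATRA combination and 17924, 18257 and 18116 with the AM80 combination. Its log2 changes from untreated cells were 0.85, 0.95, 1.79 and 1.72, where those of TM7SF2 were -0.14, -0.15, -0.35 and -0.15. NPC1, which exports cholesterol from lysosomes, rose by 0.46 and 0.55 with the combinations (limma adjusted p = 4.11e-05 and 5.84e-06). TMEM97, a sterol-regulated membrane protein, fell by 0.44 and 0.48 on the log2 scale with the retinoids and was not called with the combinations (-0.09 and -0.16).

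Of 7 genes of SREBP cleavage and sterol-regulated turnover, 0 rose and 2 fell with ATRA, 1 rose and 1 fell with AM80, and 3 rose and 2 fell with each combination. ERLIN1, which takes part in sterol-regulated protein degradation, fell by 0.56 and 0.55 on the log2 scale with the retinoids (limma adjusted p = 1.38e-07 and 1.65e-07) and rose again by 0.39 and 0.35 on adding the inhibitors. As for LPIN1, both changes use the same retinoid libraries, so a low value there favours both. ERLIN1 overlaps CHUK on the same strand (mean 1102 normalized counts). SPRING1, a cofactor of the protease that cuts SREBPs, rose with the combinations (0.45 and 0.41). RNF139, a ubiquitin ligase of the endoplasmic reticulum, rose with AM80 (0.39, limma adjusted p = 0.000392) and with both combinations (0.25 and 0.32).

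Of 9 tested genes of fatty acid synthesis, 2 rose and 1 fell with ATRA, 1 rose with AM80, 3 rose and 3 fell with the ATRA combination, and 3 rose and 2 fell with the AM80 combination. ELOVL5, a fatty acid elongase, rose by 0.76 and 0.86 with the retinoids and by 1.45 and 1.46 with the combinations (limma adjusted p = 1.83e-13 for the last). ME1, the malic enzyme that supplies NADPH, rose with the combinations (1.08 and 1.01), and with ATRA alone it fell (-0.29, limma adjusted p = 0.00843), a call lost without ATRA replicate 2 (-0.25). MID1IP1, which promotes polymerisation of acetyl-CoA carboxylase, fell with the combinations (-1.19 and -1.14, limma adjusted p = 9.85e-10 and 1.78e-09), as did GPAM, an acyltransferase of triglyceride synthesis (-0.25 and -0.39).

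Of 10 genes that use farnesyl and geranylgeranyl diphosphate, 1 rose and 1 fell with ATRA, 3 rose and 1 fell with AM80, and 4 rose and 2 fell with each combination. PDSS2, a subunit of the synthase for the coenzyme Q tail, rose in all 4 treated groups (0.35, 0.43, 0.66 and 0.63). NUS1, a subunit of the enzyme that makes dolichol, rose with the combinations (0.56 and 0.43), and RABGGTA, a subunit of the geranylgeranyl transferase for Rab proteins, fell with them (-0.52 and -0.40). FNTB, the beta subunit of farnesyltransferase, was lower with both combinations (-0.53 and -0.68), and it overlaps MAX on the other strand (mean 1508 normalized counts).

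**Figure D5:**
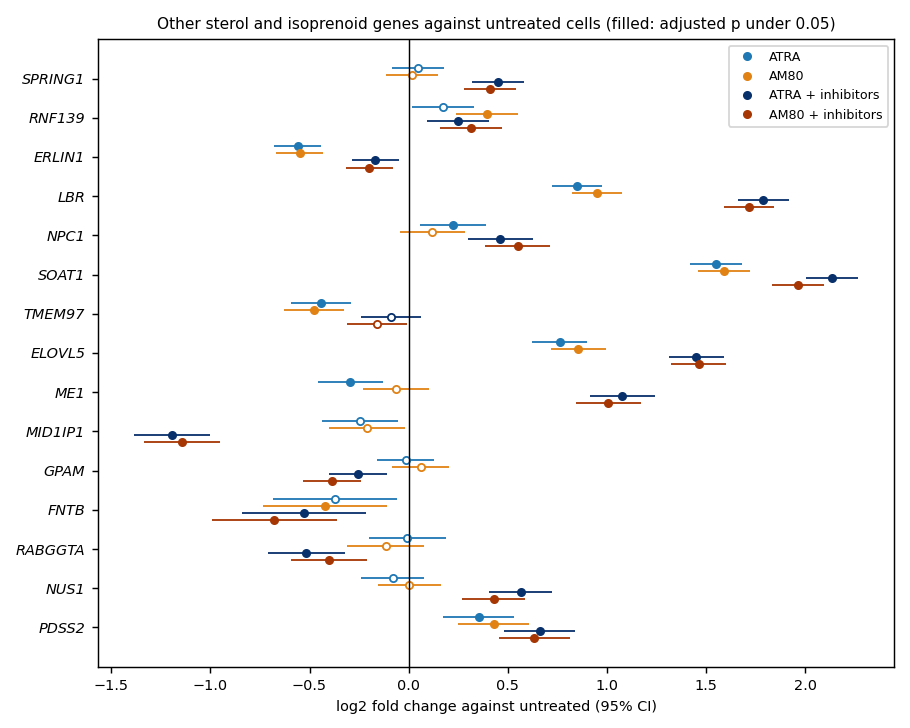
Log2 changes from untreated cells (points, with 95% confidence intervals from limma) of 15 named genes from the 4 further lists, for ATRA (light blue), AM80 (orange), the ATRA combination (dark blue) and the AM80 combination (brown), with filled points at an adjusted p under 0.05. SOAT1, LBR and ELOVL5 lie furthest to the right and further right with the combinations than with the retinoids alone, ME1 lies right of 0 with the combinations only, and MID1IP1 lies furthest to the left.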

How the data were processed

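RNA-seq of OCI-AML3 cells was read from the deposited table of signal values, which are DESeq2-normalized counts: the authors aligned and counted reads per gene (the submitters' processing notes name FastQC, cutadapt, STAR, featureCounts and DESeq2) and divided each library by its size factor. Build, annotation and strand setting are not given in the sources used here, and the labels and the study's methods name different library kits. Multiplying by the size factor gave whole reads for 100% of values within 0.001. Depth was 11963898 to 33789718 reads per library.

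Log2(normalized count + 1) was fitted with limma 3.58.1 in R 4.3.3 (1 coefficient per group, mean-variance trend, 16 libraries), keeping the 14643 genes whose mean reached 10, with Benjamini-Hochberg adjustment over all of them and calls at 0.05. Alternatives were edgeR 4.0.16 and DESeq2 1.42.0 on the recovered reads, pseudocounts, filters, scalings, a replicate block and each library left out. Over the 6 comparisons with untreated cells or the retinoid alone, edgeR called 3737 to 8760 genes on those reads where limma called 3609 to 8819. The fits were tested on simulated counts. Figures used Python 3.11.15 with matplotlib 3.10.9.

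Values in every library are given for the regulators and for the 10 other members with the largest called change, and at most 4 genes are named per further list by the same measure. Values of LBR in every library and the 6 upstream sequences were added after their values were seen. The members and lists were chosen with earlier results of these data known. A gene of a further list and 2 markers of other cells are not reported here and were left out of the counts given.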

Additional observations from a re-analysis of the deposited data

Results flagged for a closer look

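Untreated cells were the 1 group with enough libraries to look for a single library far from the rest, and 3 of 28 members had one (a gap over range above the 95% critical value of Dixon's test, which chance gives in about 1 in 20 groups). MVD stood at 1040.3 normalized counts in Untreated replicate 4 against 743, 766 and 781 in the others. GGPS1 stood at 402 in Untreated replicate 2 against 459, 459 and 469.6, and MSMO1 stood at 344 in Untreated replicate 3 against 280.3, 285 and 291. Without Untreated replicate 4 the MVD change with the ATRA combination was -0.21 in place of -0.32 and no longer called (limma adjusted p = 0.0725). Without Untreated replicate 2 or 3, respectively, 0 calls of GGPS1 or MSMO1 were lost.

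On adding the inhibitors FASN values lay in opposite directions, lower in all 3 libraries of the ATRA combination than the ATRA mean (mean log2 difference -0.41) and higher in all 3 of the AM80 combination than the AM80 mean (0.11), a difference of 0.53 with a limma adjusted p of 0.226 for the interaction. Without AM80 replicate 2 the AM80 value was -0.06 and both mean differences were negative (difference 0.36, limma adjusted p = 0.554). ACAT2 was below the untreated mean in all 3 ATRA libraries (-0.12) and above it in all 3 AM80 libraries (0.13), a difference of 0.25 with a limma adjusted p of 0.156. Neither difference was called.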

How the results depend on the processing

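Of the 91 calls of members in the 6 comparisons with untreated cells or with the retinoid alone, 64 were kept under every alternative run and 0 changed direction. Calls lost numbered 0 with a pseudocount of 0.5 or 5 or a minimum mean of 50, 9 without a filter, 13 under quantile normalization, 14 with scaling to total reads, 5 with only the groups compared, 4 with edgeR, 3 with DESeq2, and 2 to 7 with any 1 library left out. With AM80 alone, lower calls fell from 3 to 1 with only the groups compared. A fold limit of 1.5 left 0 members called with ATRA, 2 with AM80, 7 and 6 with the ATRA and AM80 combinations against untreated cells, and 4 and 3 on adding the inhibitors to ATRA and AM80. Without AM80 replicate 2 and Untreated replicate 4 together, an alternative chosen after seeing the data, adding the inhibitors to AM80 called 20 members (9 higher, 11 lower) in place of 12. Between AM80 and ATRA, where 0 were called, 1 member (IDI1) was called with DESeq2, with the replicate block and without those 2 libraries, and 0 to 1 with any 1 library left out. There DESeq2 called 2.58% of the genes it tested higher and 0.771% lower, and the block 1.93% and 0.813% of all genes. Between the combinations, where 0 were called, 9 were called with only the groups compared. All 9 were higher with AM80, where 9.43% of all genes were higher and 4.06% lower. DESeq2 called 1 higher (0.985% of the genes it tested higher and 0.21% lower), and the replicate block 4 higher (3.49% and 1.22% of all genes). Without those 2 libraries 10 were called, 9 higher and 1 lower (where 10.7% of all genes were higher and 5.04% lower). With any 1 library left out 0 to 4 were called, all of them higher with AM80. Leaving out Untreated replicate 4 gave 4, against 3.17% and 1.24% of all genes. Leaving out AM80 replicate 2 gave 2, with no share of all genes given. The cause was not tested.

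Replicate numbers did not pair the samples: same-numbered libraries of different groups had correlations of their deviations from the group mean of -0.11 to 0.19, Untreated replicate 1 correlated more with ATRA replicate 2 (0.07) than with ATRA replicate 1 (0.04), and the labels name no shared culture or batch. With the replicate number as a block, 88 of the 91 calls were kept, and the block changed no total by over 1.5 times other than the 2 between the retinoids given above. Replicate 4 exists only among untreated libraries, so the block took up that library. Log2 changes then equalled those without Untreated replicate 4, as for SC5D with ATRA (0.2066) and MVD with the ATRA combination (-0.2116). The block is therefore no separate check from leaving that library out. At an adjusted p under 0.01 no total moved by over 1.5 times, but lower calls with AM80 went from 3 to 1. The member with the fewest reads had 65 in a library, and whether depth limited the calls of members was not tested. The number of libraries limits the size of difference that could be called.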
